A study of Mus musculus with 6 samples.

Results

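Kit, Flt3 and Csf1r encode KIT, FLT3 and CSF1R, receptor tyrosine kinases of blood cells, and Kitl, Flt3l and Csf1 encode a ligand for each of them. These 6 genes were taken by name from the 19938 genes that had a probe set of their own in the platform annotation, by a rule that uses no measured value, though with earlier results of these arrays known. Each of the 6 had 1 probe set with a single gene symbol (10522530 for Kit, 10535780 for Flt3, 10456071 for Csf1r, 10366052 for Kitl, 10563116 for Flt3l and 10501164 for Csf1), so all 6 were measured and each value stands for all transcripts of its gene. Membrane-bound and soluble forms of the ligands, which arise by splicing and shedding, were therefore not told apart.

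KIT, FLT3 and CSF1R belong to the class III receptor tyrosine kinases, together with the PDGF receptors. A dimeric ligand brings a pair of receptor chains together, the chains phosphorylate each other, and adaptors then carry the signal to RAS and MAP kinases, to PI3 kinase and to STAT5. KIT marks stem and progenitor cells and mast cells, FLT3 marks multipotent, lymphoid and dendritic progenitors, and CSF1R marks monocytes and macrophages. KIT and FLT3 are also recurrently mutated in acute myeloid leukaemia.

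The cells were URE, a mouse leukaemia line, and the comparison asks how Hlx, a homeobox transcription factor gene, bears on blood cell differentiation and leukaemia. On 3 arrays (shHLX) the cells carried a short hairpin against Hlx, and on the other 3 (shControl) a hairpin against luciferase, which the cells do not make, both in the lentiviral vector pSIH1-H1-copGFP. Both groups were infected in medium with mIL-3, mIL-6 and mSCF, so the ligand of KIT was supplied to all cells, and both were sorted for GFP before RNA was prepared. The labels do not say whether the replicates were separate transductions, so the p-values cover only how much these arrays vary, which can be purely technical variation. URE is known as a line from mice without an upstream regulatory element of Spi1, the PU.1 gene, a background that both groups share.

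All values are log2 signals, and a difference of 1 is a doubling of signal. The array medians lay between 7.02 and 7.10. The first principal component (59.4% of variance) separated the groups, with shControl arrays at -13.90 to -10.44 and shHLX arrays at 10.06 to 16.45. On the second component (18.1%), shControl 1 scored 9.53 and shHLX 3 scored 9.10, whereas the remaining 4 arrays scored between -9.04 and -0.64. Hlx mRNA on the arrays labelled shHLX was 95.1% of that on the shControl arrays, with a 95% confidence interval of 0.88-fold to 1.03-fold. This difference did not pass (limma adjusted p = 0.479, and exact two-sided permutation p = 0.2, where the smallest possible is 0.1). A fall of Hlx mRNA was thus not shown on this probe set, and each direction below is between hairpin groups and rests on the labels. Of the 11 measured markers of granulocyte and monocyte progenitors, 1 rose and 3 fell, against 3.75% and 2.43% of all genes (limma adjusted p under 0.05). The summed linear signal of the 11 was 46142.7 to 46570.7 on shHLX arrays and 49689.7 to 51535.8 on shControl arrays. Elane, the neutrophil elastase gene, read 13.96, 13.94 and 13.96 on shHLX arrays against 14.04, 13.98 and 13.98 on shControl arrays. Elane, Prtn3 (-0.10) and Ctsg (-0.01) made up most of that sum, and none of them passed. Mpo, the myeloperoxidase gene, fell by 1.46 (adjusted p = 0.00151). The other 3 that passed were Itgam, the CD11b gene, with a difference of 0.75, the membrane protein gene Ms4a3 with -3.45 and Csf2ra, a GM-CSF receptor chain gene, with -0.42. No detection values were used here, so which dim probe sets lie above background is unknown.

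Of the 6 genes, 1 was lower with the Hlx hairpin, Kit, and 2 were higher, Flt3 and Csf1 (limma, Benjamini-Hochberg adjusted p under 0.05). The same test called 6.18% of all genes, 2.43% lower and 3.75% higher. Csf1r, Kitl and Flt3l did not pass. The median difference of the 6 genes was 0.05, against -0.01 for all genes. The 2 groups of arrays did not overlap for Kit, Flt3, Csf1 and Flt3l, which is 4 of the 6, and did not overlap for 26.2% of all genes. In these sorted pools, fewer cells that carry a transcript and less of it per cell cannot be told apart.

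Which start sites the transcripts of Kit, Flt3 and Csf1 used was not measured. The sequences below lie in front of annotated starts, shown so that their letters can be set beside the signals. Each is the 250 bases before a RefSeq start site in assembly GRCm38.p6. They span chr5:75574737-75574986 on the plus strand for Kit, chr5:147400490-147400739 on the minus strand for Flt3 and chr3:107760470-107760719 on the minus strand for Csf1. Capitals mark matches to any of 5 short motifs on either strand.
Kit: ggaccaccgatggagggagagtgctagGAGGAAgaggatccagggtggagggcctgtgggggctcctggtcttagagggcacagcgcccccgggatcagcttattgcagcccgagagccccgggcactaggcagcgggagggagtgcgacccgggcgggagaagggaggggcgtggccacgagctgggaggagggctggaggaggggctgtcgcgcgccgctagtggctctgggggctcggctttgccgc
Flt3: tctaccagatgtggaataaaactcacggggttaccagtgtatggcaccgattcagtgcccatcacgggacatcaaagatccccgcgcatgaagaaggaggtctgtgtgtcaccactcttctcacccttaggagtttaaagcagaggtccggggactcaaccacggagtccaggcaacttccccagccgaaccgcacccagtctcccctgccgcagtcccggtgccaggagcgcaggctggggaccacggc
Csf1: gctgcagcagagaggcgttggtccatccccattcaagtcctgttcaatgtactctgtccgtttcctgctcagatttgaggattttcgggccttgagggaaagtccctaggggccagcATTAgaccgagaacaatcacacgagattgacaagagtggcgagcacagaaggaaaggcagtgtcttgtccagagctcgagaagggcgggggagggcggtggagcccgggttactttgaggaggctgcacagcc
The homeobox core was searched as TAAT, and a PU.1-type site of the ETS family as GAGGAA. RUNX factors were represented by TGTGGT and the zinc finger factors of erythroid and stem cells by GATAA, while the TATA box was searched as TATAAA. No matches overlapped in these windows. Kit held GAGGAA 223 bases before the start shown, a motif present in 23.3% of all 32851 such windows. A second Kit start has the window chr5:75574741-75574990, not printed, with GAGGAA 227 bases before it and 18 CpG dinucleotides. Csf1 held TAAT on the opposite strand, 133 bases before its start, as did 54.9% of all windows on 1 strand or the other. Flt3 held none of the 5. The window of Kit was 70.8% G and C with 17 CpG dinucleotides, that of Flt3 59.2% with 13 and that of Csf1 56.4% with 10, against medians of 52.4% and 6 over all windows. A match is a description of letters, and sites farther from the start were not searched.

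Kit encodes the receptor for stem cell factor. Its signal was 9.99, 10.07 and 10.02 on the shHLX arrays, against 10.73, 10.76 and 10.76 on the shControl arrays. All 3 shHLX values were below all 3 shControl values, and the gap between the groups was many times the spread within either. The means were 10.03 ± 0.042 and 10.75 ± 0.016 (SD, n = 3 each), a log2 difference of -0.73 (95% confidence interval -0.83 to -0.63, limma adjusted p = 6.37e-05). The shHLX signal was 60.4% of control. The fall passed under all 16 alternatives tried, with differences from -0.76 to -0.71.

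Kitl encodes the ligand of KIT, made mainly by stromal cells. Its signal was low, at 4.71, 4.81 and 4.74 on the shHLX arrays and 4.88, 4.70 and 4.66 on the shControl arrays. The groups overlapped, and the highest and the lowest reading were both shControl arrays. The difference was 0.01 (95% confidence interval -0.15 to 0.16, limma adjusted p = 0.97). Of the 6 genes, Kitl lay below the 25th percentile of mean signal over all genes, and the other 5 genes lay above it.

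FLT3 is the receptor of early multipotent and lymphoid progenitors, and its gene moved the opposite way to Kit. Flt3 read 7.51, 7.66 and 7.46 on the shHLX arrays, against 6.95, 6.81 and 6.94 on the shControl arrays. All 3 shHLX values were above all 3 shControl values. The means were 7.54 ± 0.10 and 6.90 ± 0.078 (SD, n = 3 each), so that shHLX signal was 1.56-fold higher (limma adjusted p = 0.00102), with a 95% confidence interval of 1.41 to 1.74. Flt3 stayed past the threshold under all 15 alternatives in which it was tested, with log2 differences from 0.59 to 0.69.

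Flt3l encodes the ligand of FLT3. It read 8.33, 8.36 and 8.34 on the shHLX arrays and 8.25, 8.30 and 8.21 on the shControl arrays. The 3 shHLX values lay above the 3 shControl values, but by little. The difference of 0.09 (95% confidence interval -0.01 to 0.19) did not pass limma (adjusted p = 0.296).

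CSF1R is the receptor of the monocyte and macrophage lineage, shared by CSF1 and by a second ligand, IL-34. Csf1r read 6.19, 6.32 and 6.21 on the shHLX arrays and 6.26, 6.43 and 6.38 on the shControl arrays. The groups overlapped, since shHLX 2 read higher than shControl 1. The difference was -0.12 (95% confidence interval -0.26 to 0.03, limma adjusted p = 0.356), negative under every alternative tried (-0.17 to -0.08) and past the threshold under none. Il34 read 6.97, 6.77 and 6.55 on the shHLX arrays and 6.59, 6.86 and 6.64 on the shControl arrays, with overlap and a difference of 0.06 (adjusted p = 0.807).

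Csf1 encodes macrophage colony-stimulating factor. It read 6.99, 7.14 and 6.83 on the shHLX arrays, against 6.47, 6.62 and 6.55 on the shControl arrays. The groups did not overlap, although the shHLX arrays spread more widely than for any other of the 6 genes. The means were 6.99 ± 0.16 and 6.55 ± 0.075 (SD, n = 3 each), so that shHLX signal was 1.36-fold higher (limma adjusted p = 0.02), with a 95% confidence interval of 1.19 to 1.55. Csf1 missed the threshold without shControl 1 (adjusted p = 0.0683), shControl 3 (0.0765) or shHLX 1 (0.0775), and without variance moderation (0.127), while the difference stayed positive (0.36 to 0.52).

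**Figure D1:**
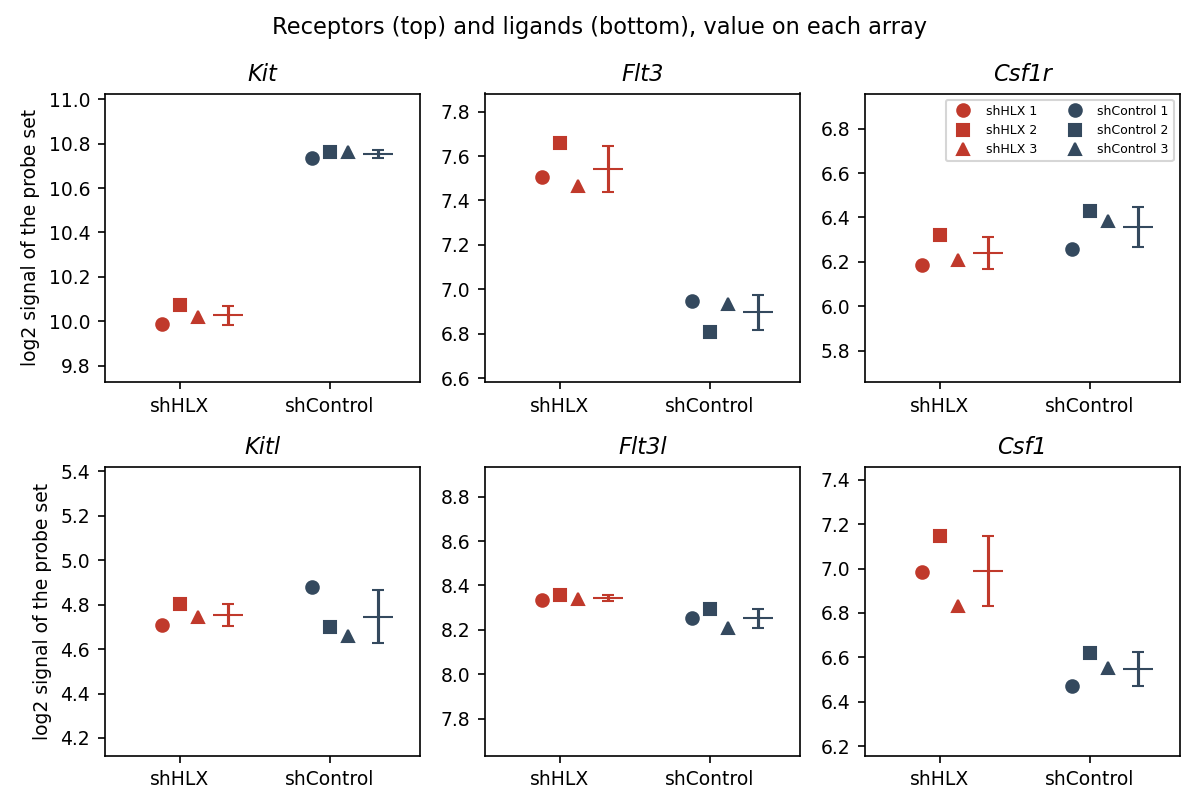
Log2 signal of each receptor gene (top) and ligand gene (bottom) on each array, with shHLX in red and shControl in dark blue. Symbols mark the replicate, bars the mean and SD of 3 arrays, and every panel spans the same height; Kit separates downwards by -0.73 and Flt3 upwards by 0.65.

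The plot by array shows that shHLX 2 gave the highest of the 3 shHLX readings for all 6 genes. That array was also the highest of the 3 for 48.7% of all 19938 genes, against 28.7% for shHLX 3 and 22.7% for shHLX 1. Without shHLX 2 the differences of Kit (-0.75), Flt3 (0.59) and Csf1 (0.36) still passed (adjusted p = 0.000363, 0.00301 and 0.04). With shControl 1 and shHLX 3 both left out, the 3 differences were -0.73, 0.71 and 0.48 and passed as well (adjusted p = 0.00114, 0.00408 and 0.0161).

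**Figure D2:**
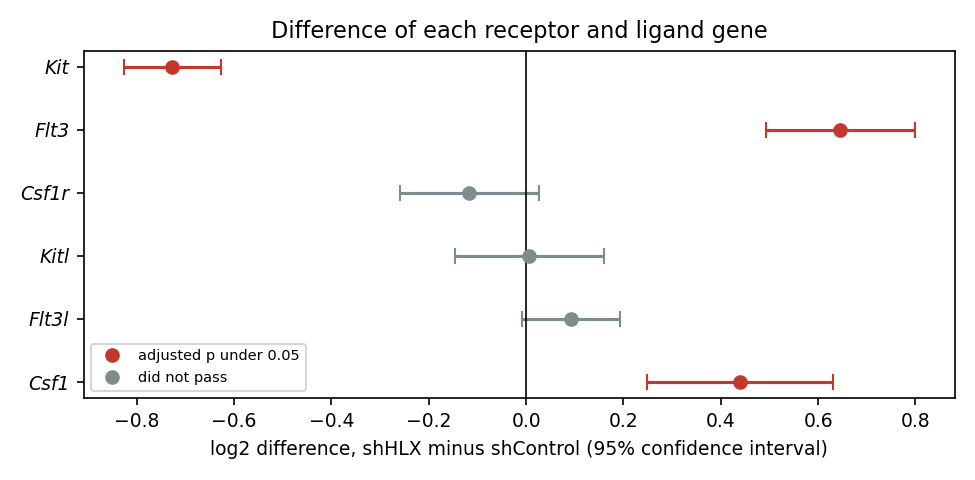
Log2 difference, shHLX minus shControl, of the 6 genes with limma's 95% confidence interval, in red where the adjusted p was under 0.05 and in grey otherwise. The intervals of Kit (-0.83 to -0.63), Flt3 (0.49 to 0.80) and Csf1 (0.25 to 0.63) leave out 0, and those of Csf1r, Kitl and Flt3l include it.

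Each receptor was thus read with its own ligand. For KIT the receptor transcript fell while the ligand's interval reached from -0.15 to 0.16. For FLT3 the receptor transcript rose while the ligand's interval reached from -0.01 to 0.19. For CSF1R the ligand transcript rose, with a call that some alternatives lost. The interval of Csf1r reached from -0.26 to 0.03.

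The genes whose readings followed the 3 called genes most closely were found by the root-mean-square difference over the 6 arrays, after each gene was centred on its own mean. Closest to Kit were Mospd3 (0.029 on the log2 scale), the ubiquitin protease gene Usp2 (0.036) and Cyth4 (0.038), with log2 differences of -0.76, -0.66 and -0.78. Closest to Flt3 were Abhd5 (0.047), an activator of triglyceride breakdown, the chemokine gene Ccl6 (0.048) and the sorting nexin gene Snx20 (0.057), with differences of 0.71, 0.62 and 0.69. Closest to Csf1 were Prag1 (0.045), Rgs3 (0.049), a regulator of G protein signalling, and Nckap5l (0.058), with differences of 0.44, 0.43 and 0.37, of which Nckap5l did not pass (adjusted p = 0.0593). With 6 arrays in 2 groups, such likeness includes the difference between the groups.

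In the RefSeq gene table, Kit lies between Pdgfra and Kdr, and Csf1r lies next to Pdgfrb, all receptor tyrosine kinase genes. Pdgfra, the PDGF receptor alpha gene, read 6.65 ± 0.12 on shHLX arrays and 6.58 ± 0.0055 on shControl arrays (SD, n = 3 each), and Kdr, which encodes a VEGF receptor, 6.16 ± 0.094 and 6.28 ± 0.0089. Neither neighbour of Kit passed, with differences of 0.07 (adjusted p = 0.596) and -0.11 (adjusted p = 0.31). Pdgfrb differed by -0.08 (adjusted p = 0.537). Flt1, another VEGF receptor gene, read 11.42 ± 0.042 and 11.61 ± 0.059 and differed by -0.19 (adjusted p = 0.0708). Of the 5 other receptor genes and 10 other ligand genes of these families, 0 passed limma, against 6.18% of all genes. The median levels of these lists were 6.22 and 6.64.

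Around the receptors, 125 of 135 listed genes were measured, and 16 of them (12.8%, against 6.18% of all genes) passed, 8 higher and 8 lower, with a median difference of 0.00. The lists were drawn up with earlier results on these arrays known, so the share is a description. It was also not matched for signal. Median levels of the lists ran from 6.22 for the other receptors to 10.25 for the RAS, MAP kinase, AKT and STAT core. The array medians, 7.02 to 7.10, were taken over all 35556 probe sets, whereas the list levels use 1 probe set per gene. Among 6 genes of ligand and receptor shedding, Rhbdf2, which encodes iRhom2, the escort of the sheddase ADAM17, rose 1.57-fold (adjusted p = 8.67e-05), and Rhbdf1 fell by 0.25 on the log2 scale (adjusted p = 0.0196). Adam17 itself differed by 0.15 and Adam10 by 0.00, and neither passed (adjusted p = 0.0916 and 0.968). ADAM17 cuts membrane-bound KIT ligand and CSF1R, among many proteins. Rhbdf1 missed the threshold when any array but shControl 1 or shHLX 2 was left out (adjusted p up to 0.086).

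Of 24 measured adaptors, kinases and lipid enzymes that bind at or near the receptors, 1 rose and 2 fell. The same test called 3.75% of all genes higher and 2.43% lower. Fyn, a SRC-family kinase gene, read 7.26, 7.34 and 7.21 on the shHLX arrays, against 6.51, 6.62 and 6.40 on the shControl arrays, a 1.69-fold rise (adjusted p = 0.000447). Dok2, which encodes an adaptor that restrains receptor signalling in myeloid cells, fell by 0.49 and Gab1, a docking protein gene, by 0.38 on the log2 scale (adjusted p = 0.000946 and 0.00348). Grb2 (0.04), Gab2 (0.15), Ptpn11 (0.07), Pik3cd (-0.16) and Plcg2 (-0.06) did not pass. Of the 14 measured genes of the RAS, MAP kinase, AKT and STAT core, 0 passed, with differences from -0.17 to 0.10.

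Of 21 measured negative regulators, 3 rose and 1 fell, against 3.75% and 2.43% of all genes. Socs2, a STAT5-induced suppressor of cytokine signalling, rose 1.28-fold, Dusp6, which encodes a phosphatase of ERK, rose 1.26-fold and Spry1, a feedback inhibitor gene of the RAS pathway, rose 1.25-fold (adjusted p = 0.00579, 0.004 and 0.00739). Ptpn6, which encodes the phosphatase SHP-1, fell by 0.24 on the log2 scale (adjusted p = 0.0109), was named after its value was seen, and was lost without shControl 3 (adjusted p = 0.065). Cbl and Cblb, the ubiquitin ligase genes that send KIT, FLT3 and CSF1R for degradation, differed by 0.06 and -0.09 and did not pass.

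Of 20 genes that growth factors induce, 2 rose and 3 fell, against 3.75% and 2.43% of all genes. Egr1 fell by 1.10 on the log2 scale, at 7.27, 7.19 and 7.25 on the shHLX arrays against 8.39, 8.28 and 8.33 on the shControl arrays (adjusted p = 1.37e-05). Etv5 fell by 0.41 and Fosb by 0.40, while the kinase gene Pim1 rose 1.39-fold and the cyclin gene Ccnd2 1.29-fold. Fos (-0.20), Junb (-0.07), Myc (-0.12) and Cish (0.06) did not pass. Fosb and Ccnd2 were named after their values were seen, and Fosb was lost without shControl 3 (adjusted p = 0.0663).

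**Figure D3:**
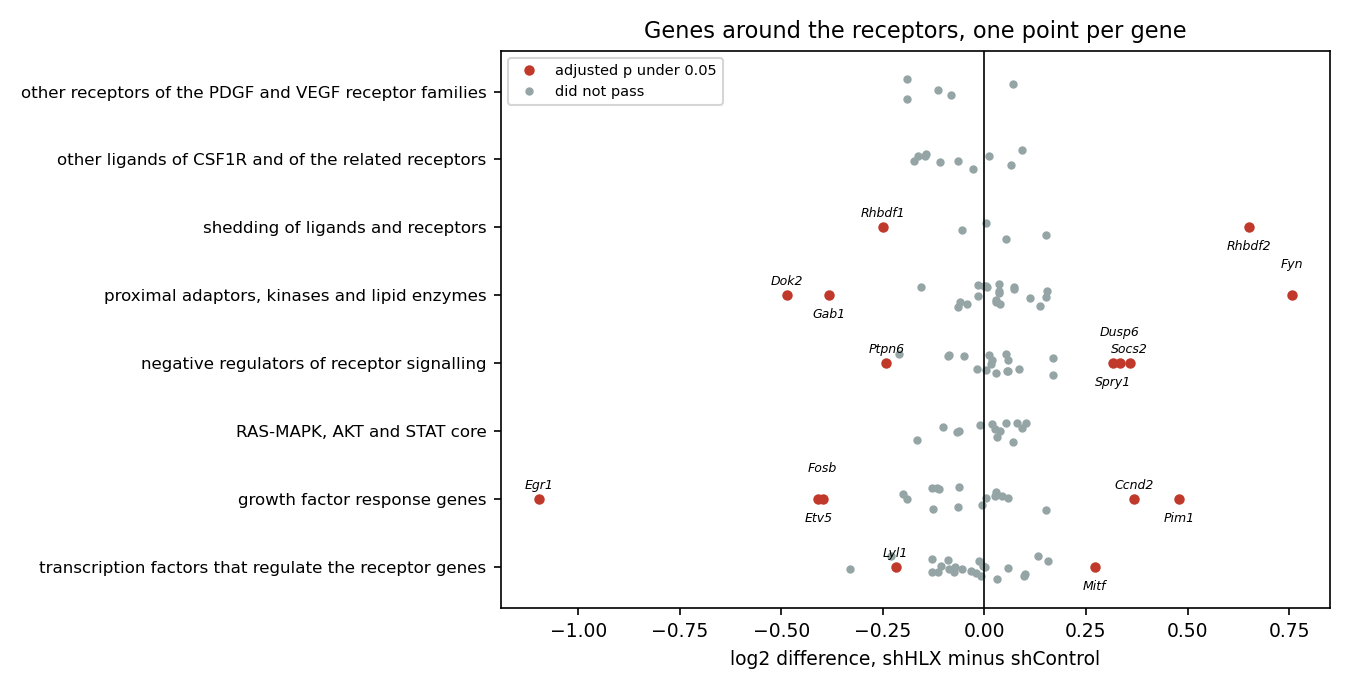
Log2 difference, shHLX minus shControl, of the measured genes of 8 lists around the receptors, 1 point per gene, in red and named where the adjusted p was under 0.05. The 16 named genes lie on both sides of 0, from -1.10 for Egr1 to 0.76 for Fyn, and the lists of other receptors, other ligands and the RAS, MAP kinase, AKT and STAT core have none.

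Among 25 genes listed as transcription factors that regulate the receptor genes, 1 rose and 1 fell. Over all genes, 3.75% rose and 2.43% fell. Hlx itself was on this list, and whether it acts on the receptor genes was not tested. Mitf, known as a driver of Kit transcription in mast cells and melanocytes, rose 1.21-fold (adjusted p = 0.0126). Lyl1, which encodes a partner of other transcription factors of stem cells, fell by 0.22 on the log2 scale (adjusted p = 0.0254). The call of Mitf did not hold without shHLX 1, shControl 1 or shControl 2 (largest adjusted p = 0.0574), and that of Lyl1 held with shHLX 2 as the array left out and with none of the others (largest 0.113). Spi1, whose product PU.1 activates Csf1r and Flt3 in myeloid and dendritic cells, read 10.34 ± 0.036 on shHLX arrays and 10.34 ± 0.073 on shControl arrays (SD, n = 3 each). Gata2 (-0.33), Tal1 (-0.23), Runx1 (0.13), Myb (-0.11) and Cebpa (0.03) did not pass.

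Markers of cell types that are rich in these receptors were counted next, and the same test called 6.18% of all genes. Mast cell markers were dim, with a median level of 5.17 and a lowest of 4.04, and which of them lie above background is unknown. Of 12 mast cell markers 0 passed, and their summed linear signal was 653 to 712 on the shHLX arrays and 716 to 775 on the shControl arrays. Without Gata2, a factor of stem cells as well, the sums of the other 11 overlapped, at 549 to 580.2 and 571 to 615. Of 12 dendritic cell markers 0 passed, with sums of 2478 to 2541 and 2372 to 2496. Of 12 measured macrophage markers Vsig4 rose 1.21-fold (adjusted p = 0.0289, above 0.05 when any array but shControl 1 or shHLX 2 was left out, up to 0.126), and the sums were 1483 to 1506 and 1463 to 1497. The signals have no zero, and the part of such cells in the results was not tested. The sums without 1 gene, here and for the lists that follow, were added after the data were seen.

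Of 12 markers of stromal and endothelial cells, the usual sources of Kitl and Csf1, 1 passed, the endothelial cadherin gene Cdh5, which fell by 2.68 on the log2 scale (adjusted p = 6.66e-07). The summed signal of these 12 was 1228 to 1383 on the shHLX arrays and 1990 to 2021 on the shControl arrays, and without Cdh5 the sums overlapped, at 1098 to 1263 and 1170 to 1277. The collagen genes Col1a1 (-0.10), Col1a2 (-0.06) and Col3a1 (-0.04) did not pass. Of 10 measured lymphoid progenitor markers, 1 passed, the surrogate light chain gene Igll1, with a 4.64-fold rise (adjusted p = 2.66e-07). The summed signal of these 10 was 2980 to 3065 on the shHLX arrays and 1185 to 1230 on the shControl arrays. Without Igll1 the order was turned, with 628 to 670.5 on the shHLX arrays and 685 to 719 on the shControl arrays, and none of the other 9 passed limma. Il7r (-0.01), Rag1 (0.04) and Dntt (-0.02), which mark the lymphoid progenitors that carry FLT3, did not pass. Their signals were low, with means of 5.59, 5.66 and 5.16 on the shHLX arrays and 5.60, 5.63 and 5.18 on the shControl arrays. Whether these lie above background is unknown. Of 7 measured erythroid and megakaryocyte markers 0 passed. For comparison with the 3 lists of this paragraph, 6.18% of all genes passed.

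**Figure D4:**
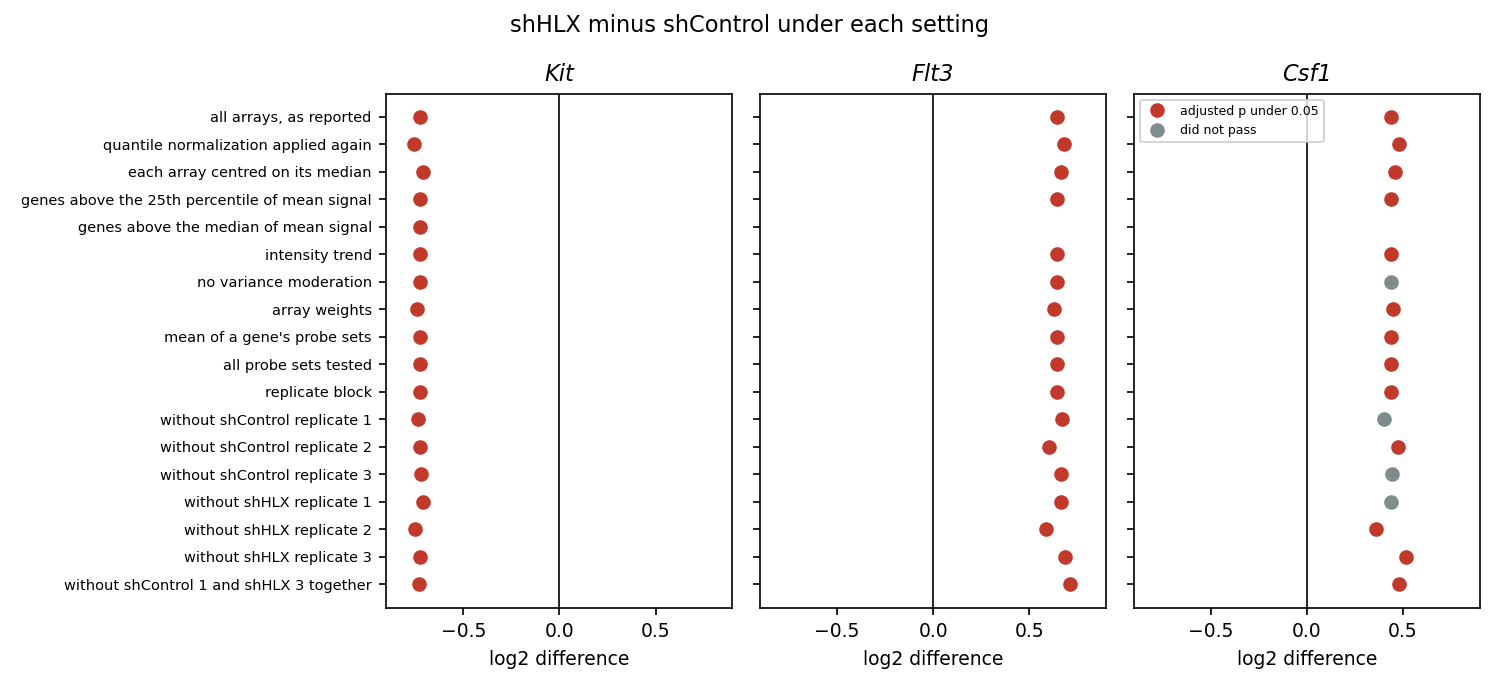
Log2 difference, shHLX minus shControl, of Kit, Flt3 and Csf1 with all arrays and under each alternative, in red where the adjusted p was under 0.05 and in grey otherwise. Kit and Flt3 are red in every row in which they were tested, while Csf1 is grey in 4 rows although its difference stays between 0.36 and 0.52; a missing point marks a filter that removed the gene.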

How the data were processed

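The submitters' processing notes name RMA and Affymetrix Power Tools 1.178, so the deposited values are log2 signals per probe set, background-corrected, quantile-normalised and summarised by the authors. Neither probe set definitions nor a genome build is given in the sources used here. Per the labels, 10 ng of RNA was amplified per array.

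Of 35556 probe sets, the 21789 with 1 symbol were kept, and a gene with several took the one of highest mean, which left 19938 genes. The shHLX and shControl arrays entered a fit in limma 3.58.1 under R 4.3.3 (moderated two-sided test without covariates, Benjamini-Hochberg over all genes, threshold 0.05), and the code was tested on simulated data. Precision is set by 3 arrays a group, with a median within-group SD of 0.0728. The members and lists were chosen with earlier results of these data known. Beside the 6 genes and Hlx, up to 3 called members per list with the smallest p and a few fixed relatives were named, while Mpo, Elane, Ptpn6, Fosb, Ccnd2 and the named genes that did not pass, other than those relatives, were picked once their values had been seen. Alternatives were other normalisations, signal filters, variance models, probe set rules, a replicate block and left-out arrays. Sequences are RefSeq's, matched by symbol for 5 of the 6 genes; Csf1r is named only. Plots used Python 3.11.15 with matplotlib 3.10.9.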

Additional observations from a re-analysis of the deposited data

How the results depend on the processing

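Kit and Flt3 kept direction and call under every alternative in which they were tested: a second quantile normalisation, median centring, filters at the 25th percentile and median of signal, an intensity trend, no variance moderation, array weights, other probe set rules, the replicate block and each array left out. The median filter removed Flt3, Csf1r, Csf1 and Kitl, and the 25th percentile filter Kitl. Csf1 did not pass without variance moderation (0.44, adjusted p = 0.127), and ranged from 0.36 to 0.52 with 1 array left out. Kitl ranged from -0.037 to 0.074 and Il34 from -0.039 to 0.17 in those fits, changing sign, as did Spi1 (-0.032 to 0.040, also -0.029 after a second quantile normalisation and -0.036 with array weights). Csf1r, Flt3l, Kitl and Hlx passed nowhere.

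The 8 higher and 8 lower genes around the receptors became 13 and 18 above the median of signal, where fewer genes are tested, and 15 and 18 with an intensity trend. With 1 array left out they ranged from 7 to 8 and from 4 to 9, the lowest being 4 lower without shControl 3, and 4 were lower without shControl 1 and shHLX 3, an alternative chosen after seeing the data. Calls over all genes (1233) were 2064 above the median of signal, 2261 with an intensity trend, 741 without those 2 arrays, and 698 to 901 with 1 array left out (806 without shControl 2, 698 without shControl 3 and 766 without shHLX 1). Of the genes outside the 6 and Hlx, 38 were refitted (those of the naming rule, with Ptpn6, Fosb, Ccnd2 and Mpo), and 37 of 638 refits lost a call and 11 gained one, among them Flt1 after a second quantile normalisation (adjusted p = 0.0303).

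Deviations of same-numbered arrays from their group means correlated at -0.17, 0.13 and -0.15. Among the other pairings, shHLX 3 with shControl 1 was highest, at 0.34, and shHLX 2 with shControl 1 lowest, at -0.25. Deviations within groups of 3 arrays cannot decide whether arrays were paired or shared a batch. With the replicate block, 800 genes passed, Kit (adjusted p = 0.00084), Flt3 (0.0071) and Csf1 (0.0198) kept their calls, and Rhbdf1, Lyl1, Vsig4 and Ptpn6 lost theirs. Dim signals limit Kitl most.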
